A study of Mus musculus with 17 samples.

Results

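The choroid plexus is the secretory tissue inside the brain ventricles: a sheet of epithelial cells around leaky capillaries and stroma that makes cerebrospinal fluid. Its epithelium moves ions, water and nutrients from blood to fluid and secretes carrier proteins, of which transthyretin (Ttr), the carrier of thyroid hormone and retinol-binding protein, is the classic product. Choroid plexus lies along the dorsal thalamus and in the lateral ventricle beside the fimbria, a white matter tract. Choroid plexus spots were taken from 3 mouse brain sections that contain the anterior thalamic nuclei, and each section gave 40 of them. Together they were 120 of 7807 spots with at least 1000 counts. In each section the spots were ranked by a score, the mean of the natural log of 1 plus the counts per 10000 of 5 genes (Ttr, Enpp2, Folr1, Kl and Clic6), and the highest 40 were taken. The spots were thus chosen by measured values of these 5 rule genes, which are described here without a test.

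The spatial libraries were Visium arrays. A spot on such an array captures the RNA above it, which can come from several cells of different types, so a value mixes epithelium with its neighbours. All sections came from flash-frozen brain of wild-type (WT) mice, cut at 10 µm, stained for NeuN and DAPI and permeabilized for 24 min, with 1 section at an anterior level (section 5) and 2 at a posterior level (sections 2 and 6). The labels give no age, and they do not say whether the sections came from separate animals, so p-values refer to spread between these sections. The fit also shares variance across genes (prior degrees of freedom 13.1). A small p-value thus rests largely on the spread of other genes, beside that of the gene itself over 3 sections. The study also has cells that were picked by hand from the anterior thalamic nuclei (14 labelled samples, WT, B6 mice), and the same genes were looked up there. The choroid plexus spots held 283069, 698768 and 479721 counts in sections 5, 2 and 6, and the other spots 13500781, 25330705 and 18101508. Values of the 3 sections are given in this order throughout, the anterior section before the 2 posterior ones. The median spot held 6432, 17017 and 12359 counts among the choroid plexus spots against 5305, 8957 and 7178 among the other spots. Barcodes mark positions on the array: 1252 of 4182 distinct barcodes occurred in all 3 sections, and the 120 choroid plexus spots had 120 different ones. Fewer cells of a type in a spot and less RNA per cell cannot be told apart in these sums.

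The promoters of some of these genes give the sequence context of what follows. Otx2, a homeobox factor required for choroid plexus development, binds DNA through the core TAATCC, and 3 choroid plexus genes with a match were chosen to show it, beside Kl and Kcnj13, which have none. The 5 shown do not reflect the balance of matches. Most choroid plexus genes looked up had no match in any listed window, among them Calml4, F5, Kcne2, Aqp1 and Cldn2. The sequences are from RefSeq (GRCm38.p6) and run from 250 bases before to 50 after a gene's start. They are given 5′ to 3′ on the gene's strand, and capitals mark TAATCC or its complement GGATTA. The Otx2 stretch belongs to 1 of its 4 listed starts (chr14:48665060-48665359, minus strand). The Ace stretch belongs to 1 of 2 starts (chr11:105967698-105967997, plus strand). Mfrp (chr9:44101520-44101819, plus strand), Kl (chr5:150952357-150952656, plus strand) and Kcnj13 (chr1:87394680-87394979, minus strand) have 1 start each.
Otx2: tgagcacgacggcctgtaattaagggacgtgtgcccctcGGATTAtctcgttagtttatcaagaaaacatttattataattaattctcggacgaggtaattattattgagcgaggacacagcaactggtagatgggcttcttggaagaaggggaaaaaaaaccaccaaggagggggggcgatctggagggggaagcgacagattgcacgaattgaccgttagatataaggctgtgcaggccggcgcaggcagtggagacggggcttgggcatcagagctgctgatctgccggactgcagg
Ace: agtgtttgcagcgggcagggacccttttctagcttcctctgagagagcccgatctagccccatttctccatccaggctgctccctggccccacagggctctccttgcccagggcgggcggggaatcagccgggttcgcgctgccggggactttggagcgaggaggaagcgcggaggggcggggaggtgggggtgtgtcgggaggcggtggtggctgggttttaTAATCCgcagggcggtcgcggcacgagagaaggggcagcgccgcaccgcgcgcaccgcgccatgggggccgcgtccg
Mfrp: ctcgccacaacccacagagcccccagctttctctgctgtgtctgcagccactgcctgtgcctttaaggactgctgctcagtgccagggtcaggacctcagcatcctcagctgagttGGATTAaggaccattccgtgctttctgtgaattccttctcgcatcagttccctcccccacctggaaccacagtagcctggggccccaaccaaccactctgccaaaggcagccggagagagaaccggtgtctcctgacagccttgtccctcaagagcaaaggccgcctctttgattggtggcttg
Kl: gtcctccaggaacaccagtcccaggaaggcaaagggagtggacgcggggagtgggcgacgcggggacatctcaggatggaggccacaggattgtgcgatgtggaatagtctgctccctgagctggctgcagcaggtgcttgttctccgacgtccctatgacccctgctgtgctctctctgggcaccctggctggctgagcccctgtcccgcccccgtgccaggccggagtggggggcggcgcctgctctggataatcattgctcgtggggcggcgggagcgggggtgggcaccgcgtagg
Kcnj13: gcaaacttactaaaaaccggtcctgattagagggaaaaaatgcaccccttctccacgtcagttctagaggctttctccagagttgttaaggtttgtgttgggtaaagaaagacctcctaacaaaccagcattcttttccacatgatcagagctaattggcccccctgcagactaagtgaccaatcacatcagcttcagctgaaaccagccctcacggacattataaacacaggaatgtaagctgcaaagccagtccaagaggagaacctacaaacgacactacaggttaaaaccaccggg
The Otx2 core was present on either strand in 8.54% of the 984 genes with a listed promoter that were called at least 4-fold higher in choroid plexus spots (8.83% of 14343 genes tested) and in 4.98% of 884 genes called at least 4-fold lower (8.48% of those tested). It was present in 6.86% of all 11244 tested genes with a promoter and in 8.14% of all 27025 genes with promoters of this length. Among 203 genes called at least 16-fold higher (1.77% of those tested) the share was 11.3%. A forkhead core, TGTTTAC on either strand, was present in 3.94% of the genes at least 16-fold higher and 4.05% of all. It was present in 3.86% of the genes at least 4-fold higher, 2.83% of those at least 4-fold lower and 3.15% of those tested. Both cores thus had a higher share among the genes at least 4-fold higher than among those tested. None of the 5 stretches holds the forkhead core, so the 2 cores do not overlap in them. Genes with several starts have more windows to search; among genes with 1 listed start the Otx2 core was present in 6.05% of those at least 4-fold higher, 3.95% of those at least 4-fold lower, 5.57% of those tested, 7.37% of all and 9.09% of those at least 16-fold higher. These shares describe letters in a window and were not tested.

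Ttr made up 16.1, 14.6 and 15% of all counts in the choroid plexus spots of sections 5, 2 and 6. Its level in CPM (counts of a gene per 1e6 counts summed over the spots) was 161173, 146101 and 149875 in choroid plexus spots against 1131, 2094 and 965 in other spots, a ratio of 142, 69.8 and 155. Single choroid plexus spots held between 194 and 6009 Ttr counts, or 4.81 to 23.9% of a spot. Every choroid plexus spot thus had Ttr, and the lowest share lay in posterior section 6.

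Enpp2 (autotaxin, the secreted enzyme that makes lysophosphatidic acid) reached 14449, 18998 and 13891 CPM in choroid plexus spots against 309, 437 and 305 CPM in other spots. Folr1, the folate receptor that carries folate across the epithelium, was at 604, 779.9 and 588 CPM in choroid plexus spots against 7.04, 17.7 and 5.75 CPM in other spots. Kl (klotho, a co-receptor for fibroblast growth factor 23) was at 1388, 1392 and 1238 CPM in choroid plexus spots against 11.6, 18.4 and 11 CPM in other spots. Each of these genes varied less between sections in the choroid plexus spots than in the other spots, where posterior section 2 was the highest for each. Clic6, a chloride channel family member, was at 1092, 1138 and 971 CPM in choroid plexus spots against 15, 23.8 and 12.3 CPM in other spots. Folr1 had a count in 38, 40 and 40 of the 40 choroid plexus spots, and Clic6 in 40, 40 and 39. All of these values follow from the choice of spots.

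The last spot inside the limit and the first outside it had nearly the same score: 3.40 against 3.36 in the anterior section, 3.54 against 3.51 in posterior section 2 and 2.86 against 2.84 in posterior section 6. Ttr was 7.78, 9.12 and 5.19% of the spot ranked 40 against 6.19, 9.2 and 3.83% of the spot ranked 41. The number 40 thus cuts a gradient. A score without Ttr chose 39, 40 and 38 of the same 40 spots.

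Genes outside the rule were also described in these spots. Their list was chosen with earlier results of these data known, so it is not an independent check of the label. Of 15 further markers of choroid plexus epithelium, 14 had a row in the spot table and passed the filter on low counts. All 14 were higher in choroid plexus spots, each by at least 4-fold in the fit and in 3 of 3 sections. A gene near 0 in the other spots passes this filter only through the choroid plexus spots, so its direction is set in advance. Mfrp, at 0, 0.118 and 0 CPM in other spots, was such a gene and adds no support. Across all genes, 22.4% of the 14343 tested were called higher and 24.7% lower at an adjusted p under 0.05, and 8.83% were called higher by at least 4-fold, so a call by itself is common and the size of the change carries the information. The median log2 fold change of the 14 markers (choroid plexus over other spots) was 6.57, against -0.10 over all genes tested. They share spots with the rule genes, though their own counts did not enter the choice. Fold changes and p-values are from the quasi-likelihood test of edgeR, fitted to 1 sum of choroid plexus spots and 1 sum of other spots per section with the section as a block, and the Benjamini-Hochberg adjustment covers all 14343 genes. A value after ± on a log2 fold change is its standard error from this fit, not an SD over sections. Without posterior section 2, which holds the most counts, 4128 genes were called in place of 6753.

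**Figure D1:**
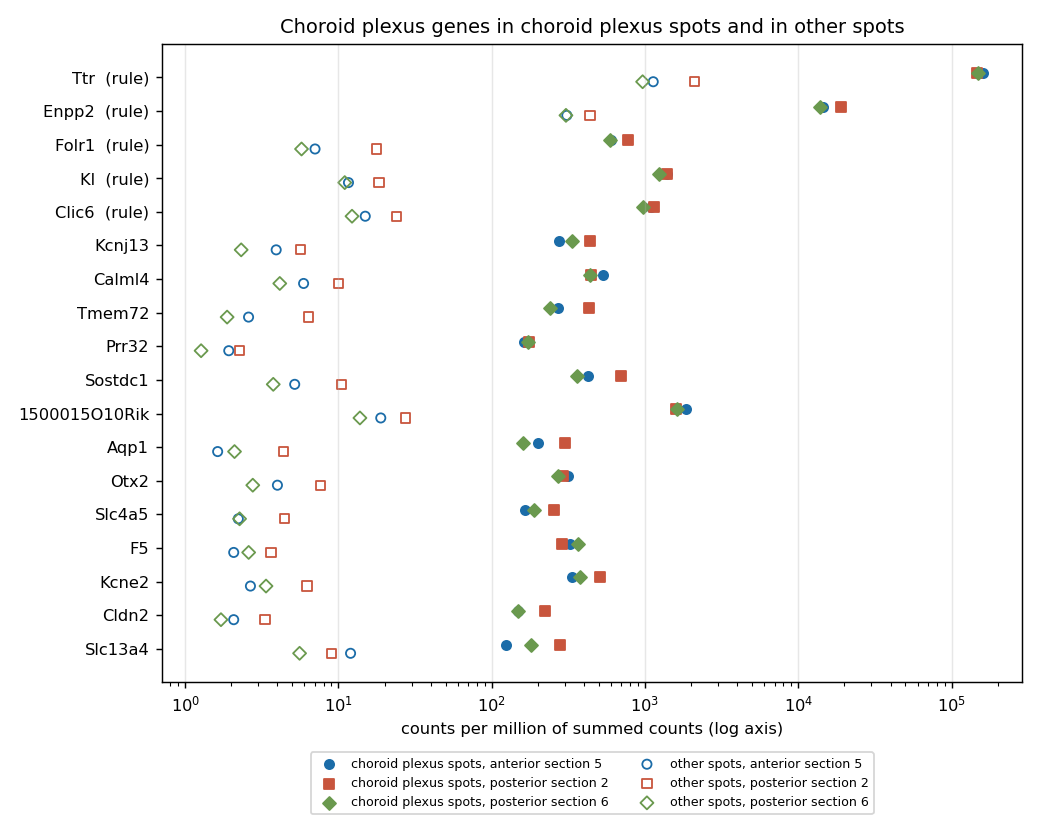
CPM (log axis) of the 5 rule genes and 13 further markers, 1 row per gene, in choroid plexus spots (filled) and other spots (open) of the 3 sections (circle anterior section 5, square posterior section 2, diamond posterior section 6). Filled and open points do not overlap for any gene shown, and the open squares of posterior section 2 lie to the right for most genes; Mfrp, at 0 in the other spots of 2 sections, is left out.

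Kcne2, a potassium channel subunit that sits in the apical membrane of the epithelium, was at 332 CPM in the anterior choroid plexus spots and 511 and 377 CPM in the posterior ones, against 2.67, 6.24 and 3.37 CPM in the other spots (log2 fold change 6.84 ± 0.16, adjusted p = 2.27e-13). Kcnj13, the inward rectifier Kir7.1, was at 276 CPM in the anterior choroid plexus spots and 439 and 334 CPM in the posterior ones, against 3.93, 5.68 and 2.32 CPM in the other spots (log2 fold change 6.69 ± 0.18, adjusted p = 7.26e-13). Both had the higher summed level in choroid plexus spots in each section. F5, coagulation factor V, was at 325 CPM in the anterior choroid plexus spots and 288 and 367 CPM in the posterior ones, against 2.07, 3.63 and 2.6 CPM in the other spots (log2 fold change 7.02 ± 0.19, adjusted p = 6.04e-13). The secreted peptide precursor augurin (1500015O10Rik, which RefSeq lists as Ecrg4) was at 1848 CPM in the anterior choroid plexus spots and 1587 and 1619.7 CPM in the posterior ones, against 18.9, 27.5 and 13.8 CPM in the other spots (log2 fold change 6.62 ± 0.18, adjusted p = 6.04e-13). Each of the 4 was higher in choroid plexus spots in 3 of 3 sections.

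The 15 genes with the largest positive changes among those at 20 CPM or more were Bhmt, F5, Steap1, Slc28a3, Smim22, Kcne2, Tmprss11a, Prr32, Defb11, Kcnj13, Tmem72, Gyltl1b, 1500015O10Rik, Frmpd1os and Aqp1. Their log2 fold changes lay between 6.53 and 7.25. Frmpd1os is an antisense transcript, and the sources used here do not say whether counting used the strand. Whether reads of its partner gene enter its count was not examined. Means in CPM are given ± SD over the 3 sections, and log2 fold changes ± standard error of the fit. Bhmt, which remethylates homocysteine from betaine, averaged 20.2 ± 7.96 CPM in choroid plexus spots and 0.139 ± 0.025 CPM in other spots (log2 fold change 7.25 ± 0.54, adjusted p = 2.28e-08), and its level in other spots rests on few counts. Steap1, a member of a family of metalloreductases, averaged 157 ± 31.9 CPM in choroid plexus spots and 1.35 ± 0.81 CPM in other spots (log2 fold change 6.99 ± 0.23, adjusted p = 2.25e-12). Slc28a3, a concentrative nucleoside transporter, averaged 20.3 ± 7.38 CPM in choroid plexus spots and 0.194 ± 0.0713 CPM in other spots (log2 fold change 6.88 ± 0.54, adjusted p = 5.23e-08). Defb11, a beta-defensin gene, averaged 112 ± 13.4 CPM in choroid plexus spots and 1.2 ± 0.681 CPM in other spots (log2 fold change 6.73 ± 0.27, adjusted p = 2.25e-11), and Tmprss11a, a membrane serine protease, 22.1 ± 3.06 CPM in choroid plexus spots and 0.234 ± 0.162 CPM in other spots (log2 fold change 6.74 ± 0.52, adjusted p = 3.73e-08). Aqp1, the water channel of the apical membrane, averaged 220.3 ± 71.2 CPM in choroid plexus spots and 2.7 ± 1.47 CPM in other spots (log2 fold change 6.53 ± 0.19, adjusted p = 8.08e-13). Each of the 15 was higher in 3 of 3 sections. Genes with few counts in other spots, such as Bhmt, Slc28a3 and Tmprss11a, passed the filter on low counts through the choroid plexus spots. The direction of their change was thus set in advance.

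Secretion into the fluid was represented by 14 tested genes of secreted carriers and hormone-binding proteins. Of these 12 rose, 0 fell and 2 did not pass, with a median log2 fold change of 2.76. Igf2, a growth factor that the choroid plexus releases into the fluid, was at 1879 CPM in the anterior choroid plexus spots and 1341 and 1509 CPM in the posterior ones, against 70, 48.5 and 33.5 CPM in the other spots (log2 fold change 5.20 ± 0.15, adjusted p = 8.02e-13). Igfbp2, which binds it, averaged 1275 ± 265 CPM in choroid plexus spots and 54.1 ± 16.9 CPM in other spots (log2 fold change 4.79 ± 0.13, adjusted p = 6.04e-13). Sostdc1, an antagonist of BMP and Wnt signals, averaged 492 ± 177 CPM in choroid plexus spots and 6.45 ± 3.51 CPM in other spots (log2 fold change 6.49 ± 0.15, adjusted p = 2.27e-13). The protease inhibitor genes rose as well: Spint2 changed by 4.08 ± 0.14 and Wfdc2 by 6.46 ± 0.23 on the log2 scale. Clusterin (Clu) and the growth factor Bmp7 rose by 1.52 ± 0.12 and 3.04 ± 0.24. Transferrin (Trf) and prostaglandin D synthase (Ptgds) rose least, by 0.53 ± 0.12 and 0.57 ± 0.18, and neither passed without posterior section 2 or without posterior section 6. Ptgds did not pass with 20 spots per section either. Its anterior choroid plexus spots, at 1215 CPM, were below the other spots of that section, at 1514 CPM. Cystatin C (Cst3) and Apod were the 2 that did not pass. In this list and in those of receptors, junctions, transcription factors and other choroid plexus epithelium genes, edgeR also found 0 members lower at an unadjusted p under 0.05, and DESeq2 found 0 lower.

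Ion and water transport drives fluid secretion, and 15 of 19 tested members of that list rose, 3 fell and 1 did not pass (median log2 fold change 3.23). Among bicarbonate and chloride carriers, the sodium bicarbonate cotransporter Slc4a5 was at 166, 256 and 188 CPM in choroid plexus spots against 2.22, 4.46 and 2.27 CPM in other spots (log2 fold change 6.29 ± 0.18, adjusted p = 7.26e-13). The anion exchanger Slc4a2 and the basolateral Slc4a10 changed by 4.14 ± 0.13 and 1.89 ± 0.13 on the log2 scale. Slc12a2, the sodium-potassium-chloride cotransporter NKCC1, averaged 379.7 ± 32.2 CPM in choroid plexus spots and 75.7 ± 4.21 CPM in other spots (log2 fold change 2.52 ± 0.12, adjusted p = 2.32e-10). Of the carbonic anhydrases, Car12 changed by 4.97 ± 0.14 and Car2 by 1.23 ± 0.11. The cation channels Trpm3 and Trpv4 rose by 5.52 ± 0.18 and 5.85 ± 0.22. The sodium pump beta subunits Atp1b1 (-0.64 ± 0.12) and Atp1b2 (-0.55 ± 0.14) fell, and Atp1b2 did not pass without posterior section 2 or without the anterior section.

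Carriers of folate, vitamins, hormones and organic ions rose in 17 of 19 tested members, 1 fell and 1 did not pass (median log2 fold change 3.01). The proton-coupled folate transporter Slc46a1, which works beside the folate receptor, was at 17.7, 48.7 and 41.7 CPM in choroid plexus spots against 8.81, 9.0 and 9.72 CPM in other spots (log2 fold change 2.29 ± 0.28, adjusted p = 5.31e-06). The reduced folate carrier Slc19a1 and the vitamin C transporter Slc23a2 changed by 1.95 ± 0.24 and 1.46 ± 0.18. For thyroid hormone, Slco1c1 averaged 360.2 ± 41.4 CPM in choroid plexus spots and 42.7 ± 3.53 CPM in other spots (log2 fold change 3.28 ± 0.13, adjusted p = 1.9e-11). The monoamine transporter Slc29a4, the hexose transporter Slc2a12 and the copper importer Slc31a1 rose by 4.59 ± 0.14, 5.13 ± 0.18 and 4.12 ± 0.15. The zinc importer Slc39a4 and Stra6, the receptor for retinol-binding protein, rose by 5.64 ± 0.35 and 5.15 ± 0.30. The sulfate transporter Slc13a4 was at 124, 280.5 and 181 CPM in choroid plexus spots against 12, 8.96 and 5.58 CPM in other spots (log2 fold change 4.77 ± 0.25, adjusted p = 7.29e-10). The taurine transporter Slc6a6 was the member that fell (-1.40 ± 0.21).

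Of 13 receptors and signalling genes, 9 rose, 0 fell and 4 did not pass (median log2 fold change 1.30). Prlr, the prolactin receptor, was at 311, 436 and 348 CPM in choroid plexus spots against 8.22, 11.8 and 5.75 CPM in other spots (log2 fold change 5.64 ± 0.16, adjusted p = 7.26e-13). Htr2c, a serotonin receptor abundant in choroid plexus, was at 382, 439 and 289.8 CPM in choroid plexus spots against 39.6, 46.8 and 39.1 CPM in other spots (log2 fold change 3.33 ± 0.14, adjusted p = 2.8e-11). Neurons are known to express it too, and the other spots held it in each section. The leptin receptor Lepr and angiotensin-converting enzyme (Ace) changed by 4.96 ± 0.36 and 5.13 ± 0.13. Mfrp, a frizzled-related membrane protein, was sparse, with 4, 5 and 3 counts in choroid plexus spots against 0, 3 and 0 in other spots (adjusted p = 7.62e-06). It passed the filter on low counts only through the choroid plexus spots, so its direction was set in advance. Igf1r and Ghr, receptors of insulin-like growth factor 1 and growth hormone, rose by 0.78 ± 0.22 and 1.30 ± 0.34, and neither passed without posterior section 2. Without that section 5 of the 13 rose.

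The epithelial character of the spots showed in junction and keratin genes, of which 10 of 13 rose, 0 fell and 3 did not pass (median log2 fold change 3.77). Cldn2, a claudin of leaky epithelia, was at 148, 222 and 148 CPM in choroid plexus spots against 2.07, 3.32 and 1.71 CPM in other spots (log2 fold change 6.39 ± 0.18, adjusted p = 7.95e-13). Cldn1 and Cldn3 changed by 5.29 ± 0.23 and 4.99 ± 0.69, and occludin (Ocln) by 3.26 ± 0.22. Cldn3, at 1.11, 0.908 and 0 CPM in other spots, passed the filter on low counts through the choroid plexus spots. Its direction was thus set in advance and adds no support. The simple-epithelium keratins Krt8 and Krt18 rose by 5.84 ± 0.31 and 6.48 ± 0.24, and ezrin (Ezr), which anchors microvilli, by 3.77 ± 0.13. Tjp1, Jup and Epcam were the 3 that did not pass.

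Among transcription factors of choroid plexus and of cells with many cilia, 11 of 13 tested rose, 0 fell and 2 did not pass; Lmx1b and Mcidas had 0 counts in the choroid plexus spots and were not tested. Otx2 was at 314, 293 and 269 CPM in choroid plexus spots against 4.0, 7.66 and 2.76 CPM in other spots (log2 fold change 6.13 ± 0.21, adjusted p = 4.3e-12). Msx1 and Lmx1a, homeobox factors of the dorsal midline, changed by 5.87 ± 0.17 and 6.45 ± 0.42. Foxj1, the master factor of motile cilia, was at 198, 139 and 175 CPM in choroid plexus spots against 15.2, 15.7 and 13.6 CPM in other spots (log2 fold change 3.69 ± 0.16, adjusted p = 7.26e-11). Gmnc and Trp73, which act early in the same programme, changed by 5.68 ± 0.47 and 4.60 ± 0.40. Gmnc, at 0.37, 0.632 and 0.221 CPM in other spots, passed the filter on low counts through the choroid plexus spots. Its direction was thus set in advance. Rfx2 and Rfx3, further cilium factors, rose by 3.05 ± 0.36 and 1.34 ± 0.19.

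Genes of cilia and ependymal cells rose in 15 of 16 tested members (median log2 fold change 3.87), and S100b, an ependymal and astrocyte gene, fell (-1.48 ± 0.17). Ccdc153, a marker of ependymal cells, the ciliated lining of the ventricles, was at 109.5, 78.7 and 139.7 CPM in choroid plexus spots against 10.7, 17.1 and 11.3 CPM in other spots (log2 fold change 3.20 ± 0.24, adjusted p = 2.97e-08). Rsph1, a radial spoke gene, was at 141, 147 and 236 CPM in choroid plexus spots against 10.4, 13.5 and 9.89 CPM in other spots (log2 fold change 4.13 ± 0.20, adjusted p = 2.11e-10). Spag16 and Dynlrb2 changed by 5.10 ± 0.30 and 4.06 ± 0.24. Since choroid plexus epithelium carries cilia too, these genes do not mark ependymal cells alone. All 8 ependymal markers were higher, and their summed level was 841, 758 and 1088 CPM in choroid plexus spots against 82.2, 107 and 78.1 CPM in other spots. It was 694, 521 and 850.3 CPM in the spots ranked 1 to 20, 1048, 1036 and 1421 CPM in those ranked 21 to 40 and 2049, 1454 and 1787 CPM in those ranked 41 to 60. The summed level was thus higher in ranks 41 to 60 than within the limit in each section, and its part in the results was not tested.

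The list of other choroid plexus epithelium genes rose in 16 of 17 tested members, all 16 by at least 4-fold, with a median log2 fold change of 5.87. Calml4, a calmodulin-like gene, was at 529.9, 445 and 436 CPM in choroid plexus spots against 5.93, 10.1 and 4.14 CPM in other spots (log2 fold change 6.33 ± 0.20, adjusted p = 1.67e-12). The collagen genes Col8a1 and Col9a3 changed by 5.71 ± 0.20 and 5.06 ± 0.14, and Cox8b, a cytochrome oxidase isoform best known from muscle and heart, by 5.90 ± 0.19. In the list of retinoid handling, 6 of 11 rose, 2 fell and 3 did not pass, beside 22.4% of all genes tested called higher and 24.7% lower. The retinol dehydrogenases Rdh5 and Rdh10 rose by 5.15 ± 0.16 and 2.54 ± 0.23. The retinaldehyde dehydrogenase Aldh1a1 and the secreted carrier Rbp4 fell, by -1.12 ± 0.33 and -1.09 ± 0.42 as log2 fold changes, and both calls were lost without posterior section 2 or without the anterior section, that of Rbp4 also without posterior section 6.

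Of 16 genes for iron, copper and metallothioneins, 8 rose, 3 fell and 5 did not pass (median log2 fold change 0.45). Over all genes tested, 22.4% were called higher and 24.7% lower. Ceruloplasmin (Cp), a copper ferroxidase, changed by 2.48 ± 0.27 and the ferritin light chain Ftl1 by 1.34 ± 0.12. The transferrin receptor Tfrc fell (-1.25 ± 0.24, a call lost without posterior section 2). Among metallothioneins, Mt3 rose by 0.47 ± 0.11 while Mt1 (-0.45 ± 0.12) and Mt2 (-0.35 ± 0.14) fell. Neither of these calls stood without posterior section 2 or without the anterior section, and with 80 spots per section both values were above 0, at 0.18 and 0.38. Of 15 circadian clock genes 0 rose by edgeR's test, at an unadjusted p under 0.05 or with DESeq2, 6 fell and 9 did not pass, beside 24.7% of all genes tested called lower. The 6 were Cry2, Arntl, Nr1d1, Tef, Hlf and Ciart, with log2 fold changes between -2.02 and -0.82. Arntl, Nr1d1 and Ciart were not called without posterior section 2.

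Nuclear genes for oxidative phosphorylation moved by small steps: 29 of 55 rose, 3 fell and 23 did not pass, with a median log2 fold change of 0.32 against -0.10 over all genes. Atp5g1, a subunit c gene of ATP synthase, was at 848, 867 and 929.7 CPM in choroid plexus spots against 356, 345 and 371 CPM in other spots (log2 fold change 1.50 ± 0.11, adjusted p = 1.84e-08). Ndufa1 of complex I and Uqcr10 of complex III rose by 1.35 ± 0.11 and 1.10 ± 0.11. The 3 that fell were the complex I genes Ndufv1, Ndufa5 and Ndufb8, none of which was called without posterior section 2. Of 13 transcripts of the mitochondrial genome, mt-Nd3 rose (0.29 ± 0.11) and mt-Nd6 fell (-0.97 ± 0.30), neither of which was called without posterior section 2 or without the anterior section, and 11 did not pass. Their summed level was 87067, 113776 and 79688 CPM in choroid plexus spots against 106713, 122297 and 91431 CPM in other spots, in totals of which Ttr takes its share.

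**Figure D2:**
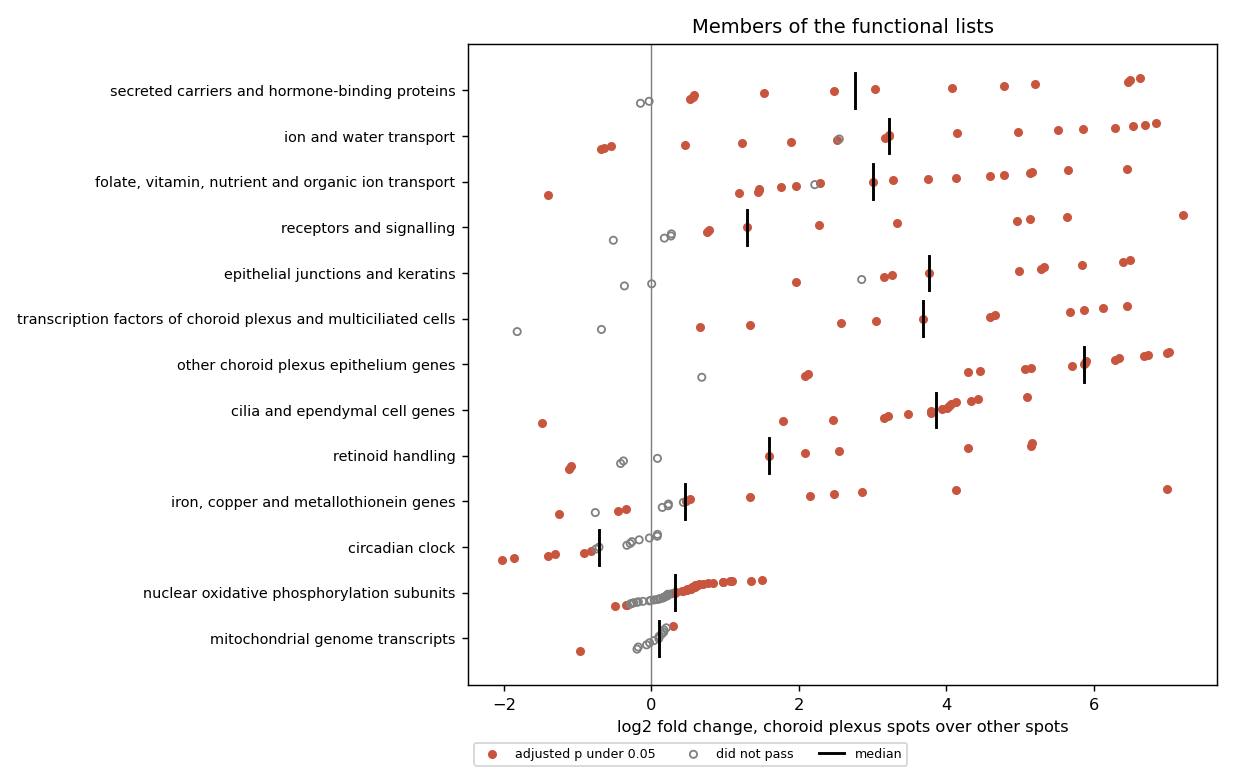
Log2 fold change of choroid plexus spots over other spots (horizontal axis) for each tested member of the functional lists (rows), rule genes left out. Filled points passed an adjusted p under 0.05, open points did not, and the bar is the median; the list of other choroid plexus epithelium genes has the highest median, 5.87, and the circadian clock list the lowest, -0.71.

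Markers of stroma, vessels and immune cells were measured in the same spots. Of 10 fibroblast markers 7 were higher and 0 lower, with a summed level of 442, 498 and 632 CPM in choroid plexus spots against 146, 90.9 and 100.05 CPM in other spots. Decorin (Dcn) was at 91.9, 78.7 and 194 CPM in choroid plexus spots against 23.1, 15.5 and 18 CPM in other spots (log2 fold change 2.89 ± 0.23, adjusted p = 5.07e-08), and Lum, Mgp and Col1a2 changed by 3.74 ± 0.30, 2.49 ± 0.16 and 2.78 ± 0.23. Of 8 endothelial markers 2 were higher and 1 lower, a share near that of all genes, and their summed level was 163, 216 and 204 CPM in choroid plexus spots against 209, 166 and 199.7 CPM in other spots. Plvap, a component of the diaphragms of fenestrated capillaries such as those of the choroid plexus, was at 45.9, 57.2 and 33.4 CPM in choroid plexus spots against 17.1, 11.7 and 16.7 CPM in other spots (log2 fold change 1.89 ± 0.27, adjusted p = 3.41e-05). Kdr, a receptor of vascular endothelial growth factor, was at 7.07, 37.2 and 29.2 CPM in choroid plexus spots against 8.3, 6.0 and 7.13 CPM in other spots (log2 fold change 2.23 ± 0.37, adjusted p = 0.000141), so its anterior choroid plexus spots were not above the other spots there. Cldn5, the claudin of the tight blood-brain barrier, was lower, at 10.6, 8.59 and 18.8 CPM in choroid plexus spots against 49.4, 44 and 54.1 CPM in other spots (log2 fold change -1.77 ± 0.27, adjusted p = 6.37e-05). Of 7 markers of pericytes and smooth muscle, Rgs5 and Pdgfrb rose, by 0.54 ± 0.21 and 0.93 ± 0.27, and Vtn fell (-0.75 ± 0.20). Those higher made up 28.6% of the list, near the 22.4% called higher over all genes. Rgs5 was higher in 2 of 3 sections, with 42.4 CPM in choroid plexus spots against 48.5 CPM in other spots of the anterior section. The summed level of the list was 159, 112 and 169 CPM in choroid plexus spots against 202, 139.5 and 161 CPM in other spots. None of Rgs5, Pdgfrb and Vtn was called without posterior section 2, nor Rgs5 and Pdgfrb without posterior section 6. The call of Rgs5 was also lost with DESeq2, without the section block and without the filter on low counts.

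Among 12 macrophage and microglia markers tested, 5 were higher and 2 lower, beside 22.4% and 24.7% of all genes tested. The antigen presentation genes Cd74, H2-Aa and H2-Ab1 rose by 2.47 ± 0.34, 2.74 ± 0.38 and 3.66 ± 0.36, and the macrophage genes Lyz2 and Mrc1 by 1.77 ± 0.28 and 1.70 ± 0.51. P2ry12 and Cx3cr1, markers of parenchymal microglia, fell by 1.24 and 0.93 on the log2 scale. The summed level of the list was 378, 362 and 425 CPM in choroid plexus spots against 429, 396 and 391 CPM in other spots, and Cd163 was not tested for lack of counts. Mrc1 and both microglia calls were lost without posterior section 2, and those of Mrc1 and Cx3cr1 also without posterior section 6. H2-Ab1 stood at 28.3, 24.3 and 62.5 CPM in choroid plexus spots against 6.44, 1.66 and 3.87 CPM in other spots.

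Neuron markers were lower. All 6 markers of cortical and hippocampal excitatory neurons fell, Slc17a7 (vesicular glutamate transporter 1) to 21.2, 45.8 and 87.6 CPM in choroid plexus spots against 429, 527 and 490.1 CPM in other spots (log2 fold change -3.00 ± 0.21, adjusted p = 1.4e-08). All 6 GABA neuron markers fell, Gad1 to 31.8, 30.1 and 102 CPM in choroid plexus spots against 339.8, 337 and 349.9 CPM in other spots (log2 fold change -2.48 ± 0.24, adjusted p = 4.18e-07). Of 6 thalamic markers 4 fell, among them Slc17a6 (-1.87 ± 0.29), and of 6 hypothalamic markers tested 5 fell. Without posterior section 2, 2 of the 6 thalamic markers fell. Of 5 dentate gyrus markers 3 fell. The 10 genes with the largest negative changes were Bdnf, Tbr1, Brinp3, Tmem145, Cecr6, Oxt, C1ql3, BC048546, Slc8a3 and Rassf5. Bdnf, a neurotrophin made by neurons, had 0 counts in choroid plexus spots against 1334 in other spots, and with a floor of 3 counts over the 3 sections together it was at least 11.4-fold lower. Oxt (oxytocin) was at 3.53, 2.86 and 25 CPM in choroid plexus spots against 417, 50.8 and 899.6 CPM in other spots and Tbr1, a factor of cortical excitatory neurons, at 0, 0 and 4.17 CPM in choroid plexus spots against 77.6, 96.4 and 84.4 CPM in other spots. Oxt also varied among the sections in the other spots.

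3 genes listed as neuron markers went the other way. Ppp1r1b, which encodes DARPP-32 and is best known from striatal neurons, was at 692, 601 and 707 CPM in choroid plexus spots against 441, 384 and 424 CPM in other spots (log2 fold change 0.88 ± 0.11, adjusted p = 5.5e-06), while the other 5 striatal markers fell (3 of them without posterior section 2), Penk by 1.66 on the log2 scale. Dsp (desmoplakin), listed for dentate gyrus and also a junction gene, rose by 5.32 ± 0.53. Chrnb4, a nicotinic receptor subunit of the medial habenula, was at 3.53, 11.4 and 18.8 CPM in choroid plexus spots against 0.222, 0.276 and 1.44 CPM in other spots (log2 fold change 4.42 ± 0.57, adjusted p = 8.81e-06). Its levels rest on 1, 8 and 9 counts in choroid plexus spots against 3, 7 and 26 in other spots. Chrnb4 and Dsp (0.0741, 0.553 and 2.43 CPM in other spots) passed the filter on low counts through the choroid plexus spots. Their direction was thus set in advance. The other 5 habenula markers did not pass an adjusted p under 0.05. The summed level of the habenula list was 21.2, 20 and 110.5 CPM in choroid plexus spots against 56.6, 53.2 and 69.2 CPM in other spots, so posterior section 6 was the section in which it was higher, and its part in that result was not tested.

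Oligodendrocyte markers depended on where the limit was set. With 40 spots all 6 were lower: Mbp (myelin basic protein) was at 1876, 1752 and 2456 CPM in choroid plexus spots against 3356, 3418 and 3468 CPM in other spots (log2 fold change -0.57 ± 0.11, adjusted p = 0.000492), and Mag changed by -1.18 ± 0.17. With 80 spots all 6 were called higher, Mbp at 0.61 and Mag at 0.36 on the log2 scale. Along the ranking, Mbp was at 959, 526 and 1182 CPM in ranks 1 to 10, 2389, 3446 and 5289 CPM in ranks 31 to 40, 14528, 9937 and 10732 CPM in ranks 61 to 100 and 2145, 2085 and 2300.3 CPM beyond rank 1000. In ranks over 100 up to 200 it was at 15871, 9967 and 9710 CPM. Mbp was therefore lowest in ranks 1 to 10, the spots richest in choroid plexus genes, and highest within ranks 61 to 200 in each section. The score behind these ranks includes Enpp2, which lay mainly with oligodendrocyte genes in the hand-picked cells. The order of Mbp is thus not independent of the ranking, and the part of Enpp2 in it was not tested. Of 6 astrocyte markers 3 fell, beside 24.7% of all genes tested, with Slc1a3 lower by 1.67 and Agt by 1.90 on the log2 scale. Gfap rose (0.51 ± 0.17), a call that was lost without the anterior section or without posterior section 6. It was also lost with 20 spots per section, where its value was -0.48.

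Choroid plexus genes declined along the ranking of the score. Ttr was at 202410, 182079 and 210774 CPM in ranks 1 to 10, 127411, 107856 and 60152 CPM in ranks 31 to 40 and 56845, 76673 and 27964 CPM in ranks 41 to 60. It was at 8989, 8779.5 and 4831 CPM in ranks over 100 up to 200, 652, 793 and 647 CPM in ranks over 400 up to 1000 and 134, 246 and 161 CPM beyond rank 1000. For rule genes this order is set by the ranking. Kcne2, which the ranking did not use, was at 392, 648 and 571 CPM in ranks 1 to 10, 337, 279 and 173 CPM in ranks 31 to 40, 45.3, 73.9 and 12.2 CPM in ranks 61 to 100 and 0.225, 0.826 and 0.619 CPM beyond rank 1000. Foxj1 did not decline until later: it was at 186, 107 and 128 CPM in ranks 1 to 10, 358, 193 and 189 CPM in ranks 41 to 60 and 36.9, 55.5 and 39.7 CPM in ranks over 100 up to 200. Ttr declined inside the 40 spots in every section, most in posterior section 6, where ranks 31 to 40 held 60152 CPM. The files used here give no spot coordinates, so a rank is not a distance.

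**Figure D3:**
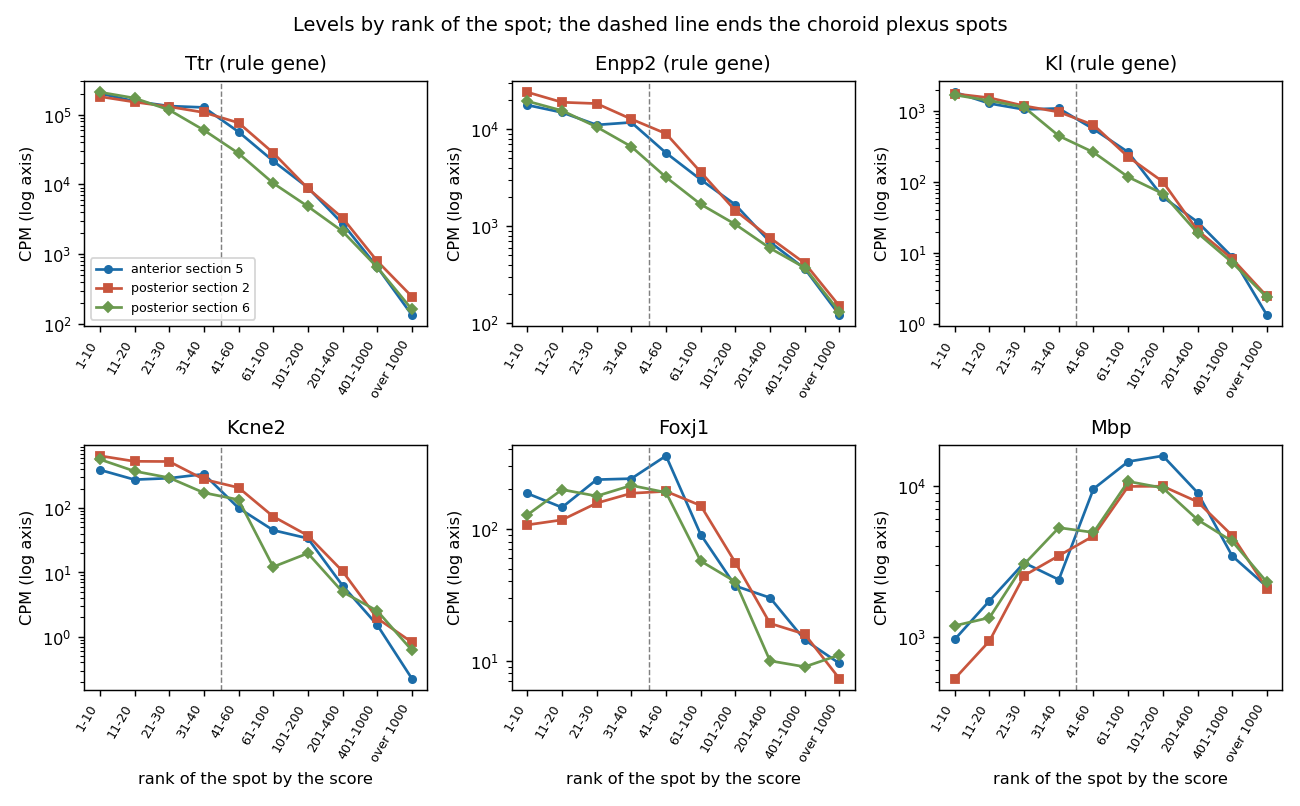
CPM (log axis) by rank of the spot for 3 rule genes (Ttr, Enpp2, Kl) and 3 genes outside the rule (Kcne2, Foxj1, Mbp), 1 line per section, with a dashed line after rank 40. Kcne2 falls with the rule genes, Foxj1 is highest between ranks 31 and 60, and Mbp peaks between ranks 61 and 200.

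A share of the counts of each rule gene lay in the other spots. Of all Ttr counts, 25.1, 34.2 and 19.5% lay outside the choroid plexus spots (26.3 ± 7.4%, SD, n = 3 sections), with exact (Clopper-Pearson) 95% intervals of 24.7 to 25.4%, 34 to 34.4% and 19.3 to 19.8% that cover counting error only. The differences between sections exceeded those intervals. With 20 spots per section the mean share was 49.6% and with 80 spots 15.3%, so the share depends on how many spots are counted as choroid plexus. The share outside was 28.5, 32.4 and 25.1% for Kl, 35.7, 45.1 and 26.9% for Folr1, 39.5, 43.1 and 32.3% for Clic6 and 50.5, 45.5 and 45.3% for Enpp2. For genes outside the rule it averaged 25.3 ± 5.43% for F5, 27.9 ± 2.74% for Kcne2 and 63.2 ± 16.5% for Slc13a4.

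Ttr was detected in 67.6, 90.2 and 75.7% of the other spots, with a median of 1.0, 3.0 and 2.0 counts, and 807, 270 and 594 spots had none. When each spot was thinned to 1000 counts, which left out no spot, all 120 choroid plexus spots and 31.7, 36.2 and 31.9% of other spots had a Ttr count. Kl, at the same depth, was found in 65, 75 and 62.5% of choroid plexus spots and 1.45, 1.35 and 1.02% of other spots. Among spots ranked over 200 the Ttr level was 425, 585 and 446 CPM, with at most 159 counts in a spot. In 4 classes of spot depth with equal numbers of spots, those ranked over 200 held between 1.57 and 7.84 Ttr counts on average, and between 319.8 and 740.1 CPM. The CPM was highest in the shallowest class in the anterior section and posterior section 2 and in the deepest class in posterior section 6, so the sections had no common order by depth.

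The Ttr level of other spots differed with their tissue markers. Among other spots, the 200 highest for ependymal markers held 8047, 17421 and 4699 CPM of Ttr, and the 200 highest for oligodendrocyte markers 7207, 5389 and 2845 CPM. The 200 highest for fibroblast markers held 3193, 8865 and 1591 CPM. The 200 highest for astrocyte markers held 2013, 3498 and 2351 CPM and those for habenula markers 803, 649 and 1862 CPM. Ependymal and oligodendrocyte groups held more Ttr than any neuron group in each section, and the fibroblast group did so in the anterior section and posterior section 2. The 200 highest for thalamic markers held 553, 1797 and 766 CPM, for cortical and hippocampal markers 477, 589 and 982 CPM, for striatal markers 155, 463 and 494 CPM and for hypothalamic markers 322, 645 and 99.9 CPM. Striatal and hypothalamic groups, the lowest in 2 and 1 of the sections, still held a Ttr count in 53 to 93.5% and 45.5 to 94% of spots, at median depths of 5768 to 9104 and 5017 to 8981 counts. Of the oligodendrocyte group, 79, 56 and 62 spots were also among ranks 41 to 200, and of the ependymal group 63, 79 and 61. What carries Ttr into these spots was not tested.

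**Figure D4:**
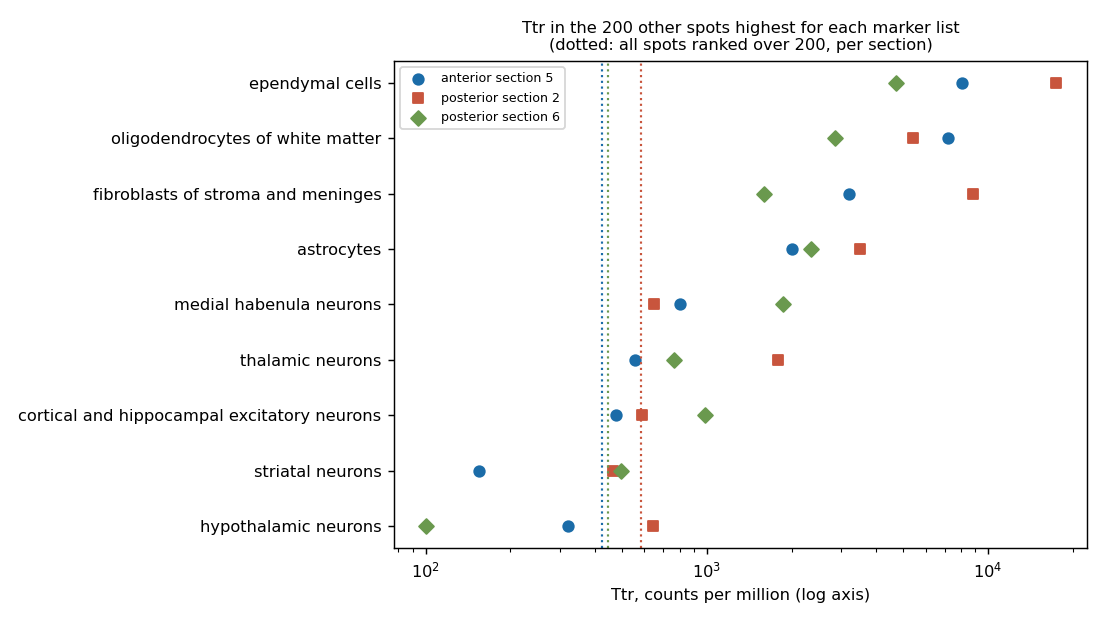
Ttr in CPM (log axis) in the 200 other spots of each section that were highest for each marker list (rows, ordered by the median over sections), 1 symbol per section. Dotted lines give the level over all spots ranked over 200 in each section, from 425 to 585 CPM. Ependymal, oligodendrocyte, fibroblast, astrocyte and habenula groups lie to the right of all 3 lines in each section. Thalamic and cortical and hippocampal groups lie to the right of the line of their own section. The groups can include ranks 41 to 200, which the lines leave out.

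The ratio of each gene to Ttr was compared between choroid plexus spots and spots ranked over 200, as counts of a gene per 1000 Ttr counts. F5 stood at 2.02, 1.97 and 2.45 per 1000 in choroid plexus spots and at 2.36, 1.94 and 2.89 per 1000 in spots ranked over 200. The ratio of the second to the first lay at 0.983 to 1.18 for F5, 0.912 to 1.08 for Prr32, 0.861 to 1.31 for Kcne2 and 0.91 to 1.37 for Kl. These ranges include 1, with few counts behind them: 13, 27 and 22 counts of F5 in spots ranked over 200. Other genes lay above 1 in every section, such as Otx2 at 1.75 to 3.07, Calml4 at 1.39 to 2.15 and Clic6 at 2.33 to 2.73. Enpp2 stood at 89.6, 130.03 and 92.7 per 1000 Ttr counts in choroid plexus spots and at 513, 431 and 519 in spots ranked over 200, a ratio of 3.32 to 5.73. Slc13a4 had a ratio of 5.6 to 34.7. In spots ranked over 200, Enpp2 and Slc13a4 were thus not in the proportion to Ttr that they had inside. Ttr and 4 other genes defined the ranks, so these ratios are a description.

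**Figure D5:**
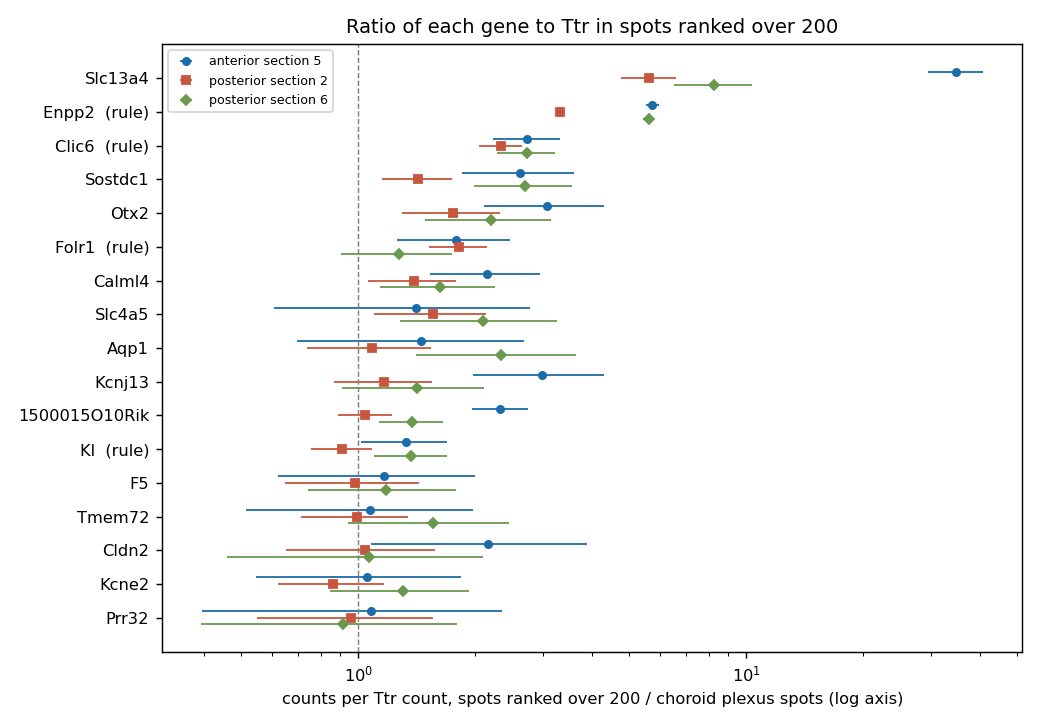
Counts per Ttr count in spots ranked over 200 divided by the same in choroid plexus spots (log axis), for 17 genes ordered by their median and 3 sections. Bars are exact Poisson 95% intervals of the gene's count in the spots ranked over 200 and cover counting error only; the dashed line marks 1, near which Prr32, Kcne2 and F5 lie, while Slc13a4 and Enpp2 lie at 3.32 or more.

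Cells picked by hand from the anterior thalamic nuclei held few counts of choroid plexus genes other than Enpp2. The 912 wells in which 1000 or more genes were detected were pooled as 1 sample, with 39664959 counts and a median of 27305.5 per cell, so no test was made. Ttr had 3 counts in 2 of 912 cells (0.219%, exact 95% interval 0.0266 to 0.79%), or 0.0756 CPM (0.0156 to 0.221), against 425, 585 and 446 CPM in spots ranked over 200. Folr1 had 2 counts, Clic6 6 and Kl 14. Kcnj13 had 3 counts, F5 3, Kcne2 5 and Otx2 43, of which 21 lay in 1 cell. Enpp2 had 1989 counts in 123 cells (50.1 CPM, 48 to 52.4). The intervals cover counting error only, and 16 blank wells with 323 counts held none of the 5 rule genes. The 2 assays differ in chemistry and depth, so their levels are set side by side and not compared.

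Enpp2 in these cells lay mainly with oligodendrocyte genes. Of 912 cells, 28 had a count of at least 4 of the 6 oligodendrocyte markers, a limit chosen after the data were seen. All 28 had Enpp2, at 944 CPM, against 10.7% of the remaining cells, at 13.4 CPM. They held 1479 of the 1989 Enpp2 counts (74.4%) and 0 counts of Ttr, Folr1, Kl and Clic6. Median depths were 25970 and 27406 counts per cell. Autotaxin is known as a product of oligodendrocytes as well as of choroid plexus. In the sections, the 200 other spots highest for oligodendrocyte markers held 1764, 1657 and 1270.3 CPM of Enpp2, against 192, 302 and 214 CPM in the 200 highest for thalamic markers. The oligodendrocyte group also held 7207, 5389 and 2845 CPM of Ttr. Of its spots, 79, 56 and 62 were among ranks 41 to 200, against 3, 5 and 6 of the thalamic group. Enpp2 is part of the score behind these ranks. How much of its level there came from choroid plexus was not tested.

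Anterior and posterior choroid plexus spots were compared without a test, because the anterior level has 1 section. Of 4597 genes with at least 50 counts over the choroid plexus spots, 7 (0.152%) were at least 2-fold higher and 77 (1.68%) at least 2-fold lower in the anterior section than in both posterior ones. The anterior choroid plexus spots held the fewest counts, 283069 against 698768 and 479721. A gene near the limit of 50 thus had few counts there, where counting error passes 2-fold downward more easily than upward. The 7 against 77 are therefore not read as a direction. Of 79 genes of the functional lists that were rule genes or at least 4-fold higher in choroid plexus spots, 1 was past 2-fold. It was the folate transporter Slc46a1, with 5 counts (17.7 CPM, exact Poisson 95% interval 5.74 to 41.2) in the anterior section against 34 and 20 counts (48.7 and 41.7 CPM) in posterior sections 2 and 6. The median ratio over the 79 genes was 0.832 for anterior over posterior section 2 and 1.02 for anterior over posterior section 6, and the 2 posterior sections differed from each other by a median ratio of 0.832 (section 6 over section 2). The anterior section and section 6 thus stood at the same median ratio to section 2. Level on the anterior-posterior axis and section cannot be told apart.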

How the data were processed

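The authors deposited raw gene counts for 28692 genes in 7827 spots with a list of the section of each spot, and gene counts per well for the hand-picked cells. Per the submitters' processing notes, Space Ranger and Seurat were used, with builds NCBIM37 and mm10 named, and their versions and roles are not given in the sources used here. Spots with at least 1000 counts were kept (20 were left out), ranked within each section by the score, and the counts of the 40 highest and of the other spots were summed. Sums were fitted with edgeR 4.0.16 in R 4.3.3 (quasi-likelihood, TMM scaling, filterByExpr, section as a block), with DESeq2 1.42.0 as an alternative. The 5 rule genes stayed in the library sizes and got no test. Both sums of a section come from the same tissue and library, and their deviations correlated at r = 0.067, 0.182 and 0.121, against -0.124 to 0.038 for pairs from different sections. The fit was tested on simulated data. Shares have exact binomial and counts exact Poisson 95% intervals. Genes were named from the 5 rule genes, the 15 largest positive and 10 largest negative changes at 20 CPM or more with 1 direction in all sections, and members of the lists by function and cell type. The members and lists were chosen with earlier results of these data known. Alternatives changed the scaling, filter, block, tool, number of spots, minimum count, score and other spots, and left out each section. The earlier quasi-likelihood method of edgeR was added after seeing the data. Wells were not matched to the 14 samples, and spot positions were not used here. Ttr, Enpp2, Folr1, Clic6 and Sostdc1 were not matched in the RefSeq promoter table. List members that the text does not name enter the counts of their lists.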

Additional observations from a re-analysis of the deposited data

Results flagged for a closer look

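Among the genes named here and called higher in choroid plexus spots, there were 5 for which the anterior section moved the opposite way from both posterior sections. The difference between levels was not tested, since the anterior level has 1 section. Kdr, a receptor of vascular endothelial growth factor, was at 7.07 CPM in choroid plexus spots against 8.3 CPM in other spots of the anterior section, and 37.2 and 29.2 CPM in choroid plexus spots against 6.0 and 7.13 CPM in other spots of posterior sections 2 and 6; the anterior value rests on 2 counts. Igf1r, the receptor of insulin-like growth factor 1, was at 42.4 CPM in choroid plexus spots against 52.8 CPM in other spots of the anterior section, and 90.2 and 66.7 CPM in choroid plexus spots against 44.4 and 47 CPM in other spots of posterior sections 2 and 6. Ptgds, prostaglandin D synthase, was at 1215 CPM in choroid plexus spots against 1514 CPM in other spots of the anterior section, and 1255 and 2066 CPM in choroid plexus spots against 1014 and 969 CPM in other spots of posterior sections 2 and 6. Zic1, a zinc finger factor of the dorsal midline, was at 70.7 CPM in choroid plexus spots against 71.6 CPM in other spots of the anterior section, and 110.2 and 125 CPM in choroid plexus spots against 84.1 and 70.4 CPM in other spots of posterior sections 2 and 6, an anterior difference of less than 1 CPM. Rgs5, a pericyte gene, was at 42.4 CPM in choroid plexus spots against 48.5 CPM in other spots of the anterior section, and 37.2 and 58.4 CPM in choroid plexus spots against 28.3 and 37.7 CPM in other spots of posterior sections 2 and 6.

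Wells listed as qRNA in the cell table, which enter no comparison, held 138 counts of Enpp2 and 25 counts of Folr1 over 56 wells with 4367024 counts, while the 16 blank wells held 0 of either among 323 counts. Ttr and Clic6 had 0 counts in the qRNA wells and Kl had 1.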

How the results depend on the processing

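Of 145 genes followed through the alternatives, all named in the text and called, 117 kept their direction and their side of the threshold under the alternatives in which they were tested. With 80 spots per section Mbp and Mag changed to 0.61 and 0.36 and Mt1 and Mt2 to 0.18 and 0.38 (log2), all 6 oligodendrocyte markers being called higher there, and with 20 spots Gfap changed to -0.48. The number of genes called, 6753, ranged from 4128 to 5451 when 1 section was left out, those higher from 2083 to 2674 and those lower from 2045 to 2777; the lowest of each came without posterior section 2. No other alternative moved these counts by more than 1.5 times: without the section block, which pairs the sums of a section, 6946 genes were called, with DESeq2 5228 and with the earlier quasi-likelihood method 6925. Without the block 9 of these genes lost their call, among them Gfap, Mt1 and Rbp4. Without the filter on low counts the median log2 fold change of all genes was -0.44 in place of -0.10, with 19973 genes tested in place of 14343, and 6557 were called. The share of Ttr outside choroid plexus spots was 49.6% with 20 spots and 15.3% with 80, and the Ttr level in other spots, 1397 CPM in the mean, was 2582 CPM with 20 spots and 485 CPM when ranks 41 to 200 were left out of them. These settings change by construction which spots count as other. The cause of the remaining changes was not tested. Depth limits sparse genes: the anterior choroid plexus spots hold 283069 counts in all, so that 1 count there is 3.53 CPM.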

Other observations

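Some genes best known from other tissues were also high in choroid plexus spots. They were chosen after their values were seen and lie outside the lists. Abca4, a retinoid transporter studied in photoreceptors and the retinal pigment epithelium, was at 166, 173 and 135 CPM in choroid plexus spots against 2.07, 3.63 and 1.99 CPM in other spots (log2 fold change 6.11 ± 0.20, adjusted p = 2.18e-12). Oca2, a melanosome membrane protein, was at 45.9, 84.4 and 35.4 CPM in choroid plexus spots against 0.518, 1.18 and 0.773 CPM in other spots (log2 fold change 6.24 ± 0.30, adjusted p = 2.33e-10). Slc16a8, a lactate transporter of the retinal pigment epithelium that choroid plexus is known to share, was at 49.5, 68.7 and 41.7 CPM in choroid plexus spots against 0.518, 2.01 and 0.331 CPM in other spots (log2 fold change 5.91 ± 0.36, adjusted p = 3.01e-09). Mitf, a transcription factor of pigment cells, was at 81.3, 103 and 87.6 CPM in choroid plexus spots against 10.9, 9.75 and 8.89 CPM in other spots (log2 fold change 3.45 ± 0.19, adjusted p = 1.41e-09). Ins2, one of the insulin genes, had 12, 23 and 18 counts in choroid plexus spots against 8, 17 and 8 in other spots (log2 fold change 6.16 ± 0.37, adjusted p = 2.71e-09). The summed level of each of the 5 was higher in choroid plexus spots in 3 of 3 sections. Those with few counts in other spots, such as Ins2 and Oca2, passed the filter on low counts through the choroid plexus spots. The direction of their change was thus set in advance.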
